A study of Mus musculus with 3 samples.

Results

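The circadian clock genes Arntl, Clock, Per1, Per2, Per3, Cry1, Cry2, Nr1d1, Nr1d2 and Dbp were followed in wounded primary mouse fibroblasts. They are 10 of the 43472 rows of the expression table, taken by gene name as the core transcription factors and repressors of the clock, and no measured value enters that rule. The cells came from the tail tips of C57BL/6 mice, were scratched in culture, and received for 5 h the soluble micrograft (MG) diluted 1:10, a cell-free extract of mouse skin, together with PD0325901 (1 μM), which blocks the kinase MEK and with it ERK signalling. All 3 libraries analysed here, labelled replicates 1, 2 and 3, belong to this MG + PD0325901 condition. No untreated or MG-only cells are among them, and the comparisons below are therefore between genes and between replicate libraries. The age of the mice and whether the replicates came from separate animals are not stated, and the spread between them may be partly technical. Only 1 time point was measured, so neither a rhythm nor a clock phase can be read from these levels.

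The mammalian clock is a loop of transcription and repression that runs in nearly every cell, fibroblasts included, and cultured fibroblasts can be set to a common phase by serum or growth factors. BMAL1, the product of Arntl, pairs with CLOCK and binds E-boxes to switch on the Per and Cry genes, the REV-ERB genes Nr1d1 and Nr1d2, and Dbp. PER and CRY proteins then hold BMAL1 and CLOCK back, while the REV-ERB receptors compete with ROR receptors for elements at Arntl and repress it. DBP acts at D-boxes, which are found at several clock genes, among them the Per genes.

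The libraries held 17244505 to 27037783 reads on genes. Normalized counts, the reads of each library divided by its size factor, are the unit of every level below unless a level is given per kb. Genes with 10 or more normalized counts in all 3 libraries are called detected here, and there were 12204 of them. The fibroblast label was borne out by 8 of 8 detected markers, such as Col1a1 and Vim. Markers of keratinocytes summed to 34.4 to 81.6 normalized counts, nearly all from Krt10, with Krt15, Krt1 and Dsg3 at 0. Leukocyte markers summed to 104 to 691, highest in replicate 3, where Lyz2 (601), Laptm5 (36.7), Tyrobp (15.4) and Cd52 (9.48) each had their highest value. Cd68, with 22.6, 33.1 and 27.3 in replicates 1, 2 and 3, was highest in replicate 2 instead. Ptprc, the defining leukocyte marker, was at most 1.74. Endothelial markers summed to 55.7 to 244, highest in replicate 2 through Tek, with Pecam1, Cdh5 and Kdr under 10 in every library. Skeletal muscle markers summed to 2661 to 8506, nearly all from Acta1 and Des and highest in replicate 2 (Acta1 7286, Des 1208), and Ckm and Myh4 were at most 2.37. The part of these cell types in the clock gene levels was not tested, and in bulk RNA fewer cells of a type cannot be told apart from less RNA per cell. In comparison with both other libraries, replicate 2 deviated by more than 2-fold in 7.66% of detected genes, replicate 1 in 2.63% and replicate 3 in 2.02%, so results are also given without replicate 2.

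All 10 clock genes were detected in each of the 3 libraries, and they did not move as a block. Arntl and Clock, which encode the activating pair, were highest in replicate 2. Among the genes that this pair is known to activate, Per2, Per3, Cry1, Nr1d1, Nr1d2 and Dbp had their lowest value there, while Per1 and Cry2 had theirs in replicate 1, as Arntl did. Not all of these differences passed the test between libraries given below. Only Per3, Nr1d1 and Dbp were called lower in replicate 2 than in both other libraries. Cry1 and Cry2 were not called between replicates 1 and 2, nor Nr1d2 between replicates 2 and 3, and Per1 and Per2 passed in no pair. By level alone, replicate 2 was the lowest library for 6 of 10 clock genes and the highest for 2, beside 37.3% and 40.6% of all detected genes. These 2 counts were 6 and 3 after scaling to equal totals, because Per1 then had its highest value in replicate 2, and 6 and 2 under TMM scaling. The median difference of replicate 2 from the gene means was -0.19 on the log2 scale over the 10 clock genes and 0.02 over all detected genes. No clock gene had replicate 2 more than 2-fold from both other libraries, which 7.66% of detected genes did.

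**Figure D1:**
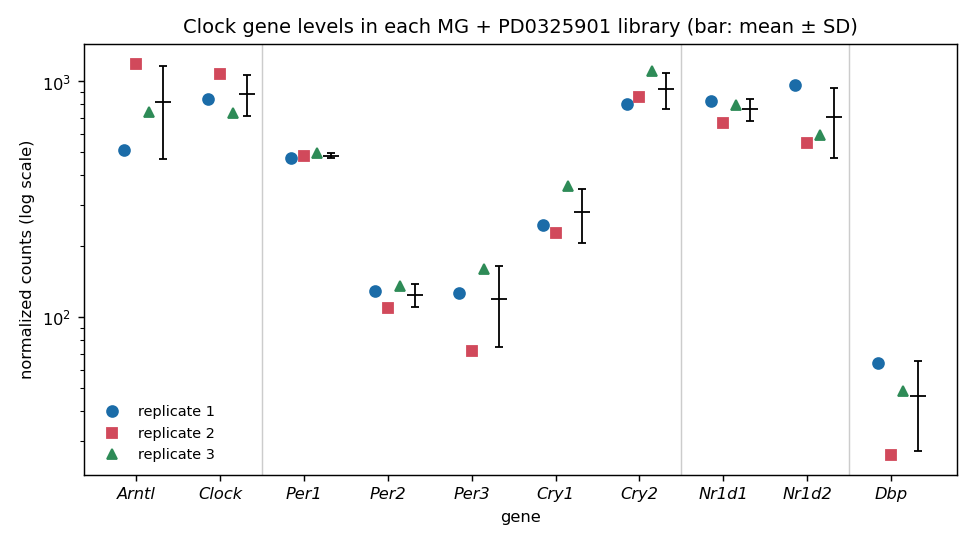
Normalized counts (log axis) of the 10 clock genes in replicates 1, 2 and 3 of MG + PD0325901, with the mean and SD (n = 3) as a black bar beside the points. Dbp lay lowest, between 26.1 and 64.3 normalized counts, and the 3 points of Per1 nearly coincided.

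Arntl (chromosome 7, 113207465 to 113314126, plus strand, GRCm38) encodes BMAL1, the activator without a full substitute in the loop. Its level in replicates 1, 2 and 3 was 513, 1191 and 742 normalized counts (mean 815 ± 345, SD, n = 3). Replicate 2 was the highest library and replicate 1 the lowest, 2.32-fold apart. Clock (chromosome 5, 76209868 to 76304792, minus strand) encodes the partner of BMAL1 and had 847, 1079 and 735 normalized counts (mean 887 ± 175, SD, n = 3). Its highest library was again replicate 2, but its lowest was replicate 3, and its range was narrower, 1.47-fold. The ratio of Arntl to Clock, taken per kb of exon within each library and therefore free of the size factors, was 1.11, 2.01 and 1.84.

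Of the period genes, which encode the PER repressors, Per1 hardly differed between the libraries. Per1 (chromosome 11, 69095217 to 69109960, plus strand) had 472, 483 and 495 normalized counts (mean 484 ± 11.5, SD, n = 3), a coefficient of variation of 2.39%. The counting error at its smallest read number, 418 reads, was 4.89%, so its spread between replicates was below the error of counting. Per2 (chromosome 1, 91415982 to 91459324, minus strand) was lower, with 129, 109 and 136 normalized counts (mean 125 ± 14.1, SD, n = 3). Per3 (chromosome 4, 151003652 to 151044665, minus strand), a less central member of the family, had 127, 71.9 and 161 normalized counts (mean 119.9 ± 45.1, SD, n = 3). Per2 and Per3 shared replicate 2 as their lowest and replicate 3 as their highest library. The range was 1.25-fold for Per2 and 2.24-fold for Per3.

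The cryptochrome genes encode CRY1 and CRY2, the partners of the PER proteins in repression, and both were highest in replicate 3. Cry1 (chromosome 10, 85131700 to 85185064, minus strand) had 247, 228 and 360.3 normalized counts (mean 279 ± 71.3, SD, n = 3). Cry2 (chromosome 2, 92403646 to 92434043, minus strand) had 805, 858 and 1111 normalized counts (mean 925 ± 163, SD, n = 3). Replicates 1 and 2 lay close to each other in both genes, and replicate 3 stood 1.46-fold above replicate 1 for Cry1 and 1.38-fold for Cry2. Per kb, Cry2 was 1.72, 1.99 and 1.63 times the level of Cry1 in replicates 1, 2 and 3, a ratio that varied less than either gene did.

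Nr1d1 and Nr1d2 encode REV-ERBα and REV-ERBβ, receptors that repress Arntl. Nr1d1 (chromosome 11, 98767932 to 98775333, minus strand) had 826, 667 and 792 normalized counts (mean 761 ± 83.9, SD, n = 3). Nr1d2 (chromosome 14, 18204054 to 18239127, minus strand) had 969, 549.6 and 594 normalized counts (mean 704 ± 230.5, SD, n = 3). Both were lowest in replicate 2, yet in Nr1d2 replicate 3 lay beside it and replicate 1 stood alone, 1.76-fold above replicate 2. The range of Nr1d1 was 1.24-fold. Dbp (chromosome 7, 45705088 to 45710203, plus strand), the output factor that binds D-boxes, had 64.3, 26.1 and 48.6 normalized counts (mean 46.3 ± 19.20, SD, n = 3). It rested on 74, 37 and 41 reads, with a counting error of 16.4% in the smallest, and its 2.46-fold range was the widest of the 10 genes.

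**Figure D2:**
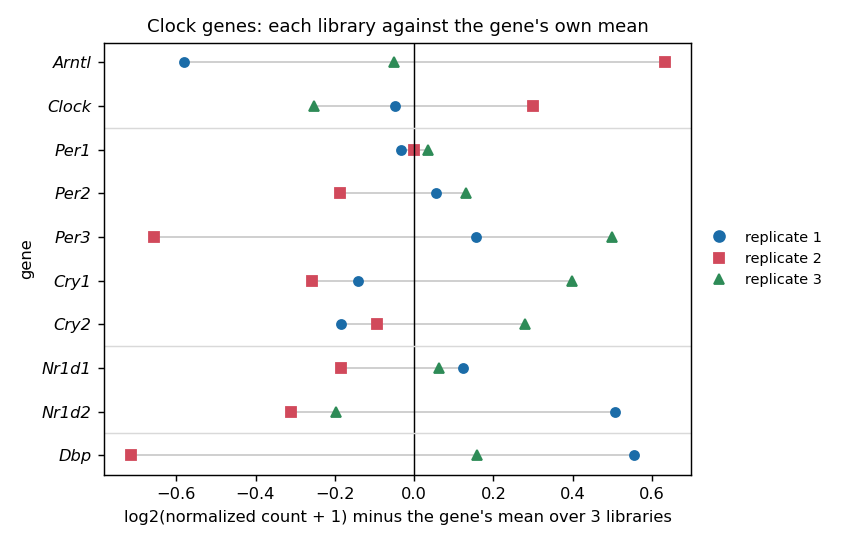
Difference of log2(normalized count + 1) in each library from the gene's own mean over the 3 libraries, for the 10 clock genes grouped by role. Replicate 2 (squares) lay at 0.63 for Arntl and 0.30 for Clock, and at -0.71 for Dbp and -0.65 for Per3.

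Ratios to Arntl within a library, where the size factor drops out, are given for genes that were lowest in replicate 2, so that their order over the libraries follows from the levels above and adds no separate support. The per-kb ratio of Arntl to Nr1d1 was 0.254, 0.731 and 0.383 in replicates 1, 2 and 3. Against Nr1d2 it was 0.381, 1.56 and 0.898. The order of these 2 genes depends on the length used, since by the longest transcript Arntl ranked 3 and Nr1d2 ranked 4 per kb, against 4 and 3 by all annotated exons. Relative to Per3, Arntl was 5.17, 21.2 and 5.88 times as high per kb, and relative to Dbp it was 3.18, 18.2 and 6.07 times. Each of these ratios was highest in replicate 2, as was that of Arntl to Clock. The ratio of Per1 to Per2, by comparison, was 3.80, 4.60 and 3.78.

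The elements through which these genes act on each other were looked up in RefSeq promoter windows (GRCm38.p6), each reaching from 250 bases before a start site to 50 bases after it. There were 13 windows for 9 of the 10 clock genes, all but Per2. Shown here, 5′ to 3′ on the strand of the gene, are stretches with a match in Cry1, Per1, Nr1d1, Per3 and Arntl. The windows of Clock, Nr1d2 and Dbp held none of the elements looked up, and sequence outside the windows was not searched. Any link between these elements and the levels in the libraries was not tested. Capitals mark the E-box CACGTG, its variant CACGTT (read as AACGTG on the other strand), the D-box TTATGTAA and the ROR element core TAGGTCA, to which the REV-ERB receptors also bind.
Cry1, chr10:85185082-85185160, minus strand: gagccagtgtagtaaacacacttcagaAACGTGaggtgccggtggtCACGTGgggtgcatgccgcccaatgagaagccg
Per1, chr11:69098756-69098815, plus strand: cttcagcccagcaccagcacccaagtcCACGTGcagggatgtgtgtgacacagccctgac
Nr1d1, chr11:98775378-98775432, minus strand: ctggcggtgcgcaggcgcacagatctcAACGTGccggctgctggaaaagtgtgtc
Per3, chr4:151044789-151044897, minus strand: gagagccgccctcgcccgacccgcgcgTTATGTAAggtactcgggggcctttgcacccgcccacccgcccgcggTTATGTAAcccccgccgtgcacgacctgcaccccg
Arntl, chr7:113207530-113207558, plus strand: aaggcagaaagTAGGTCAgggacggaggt

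Cry1 held an E-box 60 bases before its start site and the variant 79 bases before it. The Per1 stretch, 166 bases before a RefSeq start site, lay between annotated exons of the longer gene model. Nr1d1 held the variant 28 bases before its start, and Cry2 held it 166 bases before its own. Per3 carried the D-box letters at 205 and again at 158 bases before its start, and Arntl carried the ROR core 31 bases after a start site. On either strand, CACGTG was in 7.15% of all 32851 windows of this length, CACGTT in 4.68%, TTATGTAA in 0.938% and TAGGTCA in 2.61%. Among the 13 clock gene windows these letters were in 2, 3, 1 and 1. The D-box form TTACGTAA (0.119% of all windows), the CRE TGACGTCA (1.79%) and the ROR core TGGGTCA (3.98%) were in none of the 13. CACGTG, TTACGTAA and TGACGTCA read the same on both strands. Such matches describe the sequence and do not show that a factor was bound in these cells.

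Levels of different genes were compared per kb of annotated exon, since a longer transcript collects more reads. In normalized counts per kb, Nr1d1 was the highest of the 10 genes with 247 ± 27.3 (SD, n = 3), followed by Cry2 with 146 ± 25.8 and Nr1d2 with 130.2 ± 42.6. Arntl had 108 ± 45.8, Per1 85.9 ± 2.05, Cry1 83.4 ± 21.4 and Clock 64.6 ± 12.8 (SD, n = 3, per kb). The lowest levels per kb were those of Per2 with 21.3 ± 2.40, Dbp with 15.5 ± 6.41 and Per3 with 12.5 ± 4.69 (SD, n = 3). Nr1d1 and Cry2 were separated, as the lowest library of Nr1d1 had 217 per kb and the highest of Cry2 had 176. Clock and Per2 were separated by a 3.03-fold step. The other 7 of the 9 neighbouring pairs in this order had overlapping ranges, so the order from Cry2 down to Clock, and from Per2 down to Per3, was not resolved beyond the spread between libraries. Among the 11620 detected genes with an annotated length, Nr1d1 stood at percentile 70.6 of the mean level per kb, Arntl at 50.2 and Per3 at 9.55. Without replicate 2, Arntl moved from rank 4 to rank 6 and Cry1 from rank 6 to rank 4.

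**Figure D3:**
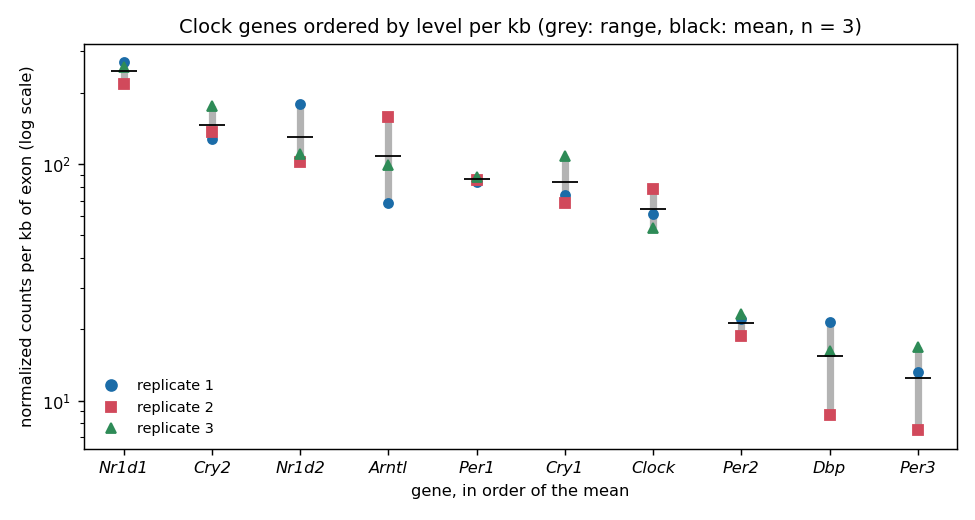
Normalized counts per kb of annotated exon (log axis) for the 10 clock genes in order of their mean, with each library as a point, the range in grey and the mean in black (n = 3). Nr1d1 lay above the other genes, and Per2, Dbp and Per3 formed a lower group at or under 23.3 per kb.

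Differences between libraries were tested gene by gene on the recovered reads with a two-sided exact binomial test over the whole table, with Benjamini-Hochberg adjustment at 0.05. Such a test compares 2 libraries beyond counting error and not conditions or cultures. Between replicates 1 and 2, 6 of 10 clock genes were called, beside 69.1% of 14771 genes tested. Between replicates 1 and 3, 5 of 10 were called, beside 52.0% of 14316 genes, and between replicates 2 and 3, 7 of 10, beside 62.6% of 14344 genes. The clock genes were therefore called about as often as genes at large, and the counts say nothing particular about them. With more than 2-fold required as well, 2, 0 and 1 of the clock genes were called in these pairs, beside 20.3%, 9.27% and 16.4% of the genes tested.

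Arntl and Clock were called in all 3 pairs. Arntl in replicate 2 was 2.32-fold higher than in replicate 1 (95% interval 2.11 to 2.55, adjusted p = 2.955e-76, exact binomial test). Replicate 3 was also above replicate 1, by 1.45-fold (1.29 to 1.62, adjusted p = 9.38e-10, exact binomial test). For Clock, replicate 2 was 1.27-fold above replicate 1 (1.18 to 1.38, adjusted p = 7.54e-09, exact binomial test), while replicate 3 was below it at 0.868-fold (0.784 to 0.961, adjusted p = 0.0131, exact binomial test). These intervals reflect counting error alone, and without molecular identifiers the reads are not independent molecules.

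Among the repressors and the output factor, Nr1d2, Dbp and Per3 gave the widest differences. Nr1d2 in replicate 2 was at 0.567-fold of replicate 1 (0.517 to 0.622, adjusted p = 8.59e-34, exact binomial test) and did not pass the test between replicates 2 and 3 (1.08-fold, 0.964 to 1.21, adjusted p = 0.244, exact binomial test). Dbp in replicate 2 was at 0.406-fold of replicate 1 (0.266 to 0.610, adjusted p = 1.19e-05, exact binomial test). Per3 was 2.24-fold higher in replicate 3 than in replicate 2 (1.72 to 2.93, adjusted p = 2.21e-09, exact binomial test). Nr1d1 in replicate 2 was at 0.807-fold of replicate 1 (0.737 to 0.884, adjusted p = 7.86e-06, exact binomial test). Cry1 and Cry2 were called in both pairs with replicate 3 and not between replicates 1 and 2, where their intervals were 0.784 to 1.09 and 0.978 to 1.16. Per1 and Per2 passed in none of the 3 pairs. For Per1 the 3 intervals together ran from 0.905 to 1.19, and for Per2, with 115 to 155 reads, from 0.670 to 1.60, so differences within these bounds were not excluded.

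The spread between the libraries was near that of other genes. The SD of log2(normalized count + 1) had a median of 0.31 over the 10 clock genes and 0.30 over all 12204 detected genes, and 5 of the 10 lay below the latter. Without replicate 2 these medians were 0.26 and 0.20, without replicate 1 they were 0.33 and 0.26, and without replicate 3 they were 0.23 and 0.30, so which median was larger depended on the library left out. Per1 was at percentile 1.05 of all detected genes, with an SD of 0.034. Nr1d1 and Per2 were at percentiles 20.9 and 21.3, while Per3, Arntl and Dbp were at 83.1, 84.0 and 86.1. A more than 2-fold range between libraries was found in 3 of 10 clock genes, Arntl, Per3 and Dbp, beside 21.6% of all detected genes. Without replicate 2 none of the 10 reached 2-fold, beside 6.39% of detected genes. Without replicate 1 only Per3 did, beside 12.8%, so these counts say nothing particular about the clock genes.

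**Figure D4:**
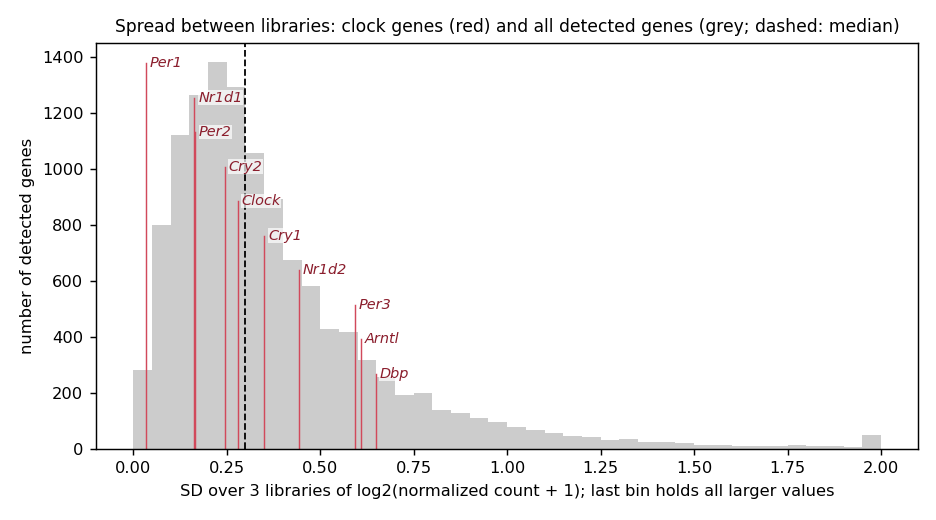
Distribution over the 12204 detected genes of the SD of log2(normalized count + 1) between the 3 libraries (grey bars, median dashed at 0.30), with the 10 clock genes as red lines. Per1 lay at 0.034, near the left end, and Dbp at 0.65 was the widest of the clock genes.

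Sequence shared with other genes touched only some of the clock genes. No window of 50 bases, the read length, was common to any pair of the 10 clock genes, paralogs included, in the annotated transcripts. Arntl, Clock, Per1, Per2 and Cry1 shared no such window with another gene. Dbp overlapped exons of Sphk2 on the opposite strand over 539 bases, 18.0% of its exonic length, and Sphk2 had 975, 965 and 1121 normalized counts, far above Dbp. Nr1d1 overlapped Thra on the opposite strand over 263 bases, 8.55% of its exonic length, and Thra had 1045, 1187 and 1095 normalized counts. Cry2 overlapped a non-coding gene, D930015M05Rik, over 295 bases, but that gene had at most 2.82 normalized counts. Nr1d2 shared 5.13% of its windows with AC170187.1 and Per3 shared 0.217% with other genes. Arntl overlapped the antisense gene Gm45355 over 33 bases, and Per3 lies within Camta1 on the same strand without a shared exonic base. Clock likewise shared no exonic base with Ube2n-ps1 and Gm43658, which lie within its span. A stranded kit was used, but whether the counting used strand is not given in the sources used here, and the levels of Dbp, Nr1d1 and Cry2 are uncertain to that extent.

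A list of 27 further clock genes was read in the same way, and 24 of them were detected. Their median SD of log2 level was 0.27 over the detected genes. Between replicates 1 and 2, 20 of 27 were called by the exact binomial test, 12 higher and 8 lower in replicate 2, and between replicates 2 and 3, 16 of 27. Between replicates 1 and 3, 11 of the 26 tested were called, 2 higher and 9 lower in replicate 3. These shares lie near those of all genes given above. A more than 2-fold range was seen in 7 of the 27, namely Npas2, Rorb, Bhlhe40, Bhlhe41, Ciart, Noct and Wee1. Of the 24 detected genes 5 had such a range, beside 21.6% of all detected genes. Replicate 2 was lowest in 8 and highest in 11 of these 24, beside 37.3% and 40.6% of all detected genes.

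Of the activator paralogs, Npas2, which can stand in for CLOCK, had 33.0, 28.9 and 5.93 normalized counts and was under the minimum in replicate 3, where it rested on 5 reads. Arntl2 was detected with 121, 98.6 and 86.5 normalized counts. Of the ROR receptors, which activate Arntl at the elements that REV-ERB receptors occupy, Rora was detected with 771, 793 and 674 normalized counts. Rorb had 0, 59.9 and 2.37 normalized counts and was thus above the minimum in replicate 2 alone. The reads behind Rorb numbered 0, 85 and 2, and a count of 0 in replicate 1 allows up to 2.61 normalized counts. Rorb reached the minimum of 10 reads in a pair only through replicate 2, and the pair of replicates 1 and 3 was not tested. Its calls in the pairs with replicate 2 therefore add no separate support to that difference.

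The other repressors contained the widest range among detected clock genes. Bhlhe41, which encodes DEC2, had 166, 24.7 and 102 normalized counts, so replicate 1 was 6.73-fold above replicate 2 (adjusted p = 4.33e-34, exact binomial test). Bhlhe40, which encodes DEC1, stood at 2498, 1107 and 2501. Ciart, which encodes the repressor CHRONO, had 119, 54.3 and 104. All 3 were lowest in replicate 2. Cipc, a further CLOCK-interacting repressor, had 999, 1124 and 847 normalized counts and was highest there. Bhlhe40 was the highest of this group per kb, with 433 ± 171 (SD, n = 3).

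Among the factors that act at D-boxes, Tef, a relative of Dbp, had 770, 675 and 843 normalized counts, and Hlf had 26.1, 33.1 and 41.5. Nfil3, the repressor that competes with DBP, had 597, 987 and 898 normalized counts and was lowest in replicate 1, like Arntl. Per kb, Nfil3 was the highest of these 3 genes with 409 ± 101 (SD, n = 3), against 15.5 ± 6.41 for Dbp.

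The casein kinases, which mark PER and CRY proteins for degradation, were the steadiest group, with a median SD of log2 level of 0.14, and the ubiquitin ligase parts had 0.22. The casein kinase genes Csnk1a1, Csnk1d and Csnk1e had means of 2961 to 6663 normalized counts. Csnk1d, the highest per kb of annotated exon with 826 ± 21.7 (SD, n = 3), varied 1.05-fold between libraries. That order depends on the length used, and by the longest transcript Csnk1a1 was the higher. Annotated exons cover 10502 bases of Csnk1a1 and its longest transcript 4083, against 5022 and 3675 for Csnk1d. Fbxw11, highest per kb among the ubiquitin ligase parts, had 1903, 2326 and 2365. Fbxl21 was barely above the minimum, with 16.5, 12.0 and 23.7 normalized counts.

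Of the 4 clock outputs, 3 were highest in replicate 2, and of the 4 inputs 2 were highest and 2 lowest there, beside 40.6% of all detected genes highest and 37.3% lowest. Groups this small show no more than their counts. Noct, which encodes the rhythmically expressed enzyme nocturnin and is listed under its older symbol Ccrn4l, had 9736, 2798 and 2766 normalized counts, so replicate 1 stood 3.48-fold above replicate 2. Wee1, a mitosis kinase gene under E-box control, had 34.7, 84.6 and 33.2, and Usp2 had 225, 347 and 207, both highest in replicate 2 like Arntl. Nampt, an enzyme gene of NAD synthesis, had 693, 912 and 638 normalized counts. Of the inputs, Crtc2, a CREB coactivator and the highest per kb in its group, had 837, 567 and 775, while Creb1, Nr3c1 and Sik1 had means of 199 to 1001 normalized counts and ranges of 1.15-fold to 1.46-fold.

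**Figure D5:**
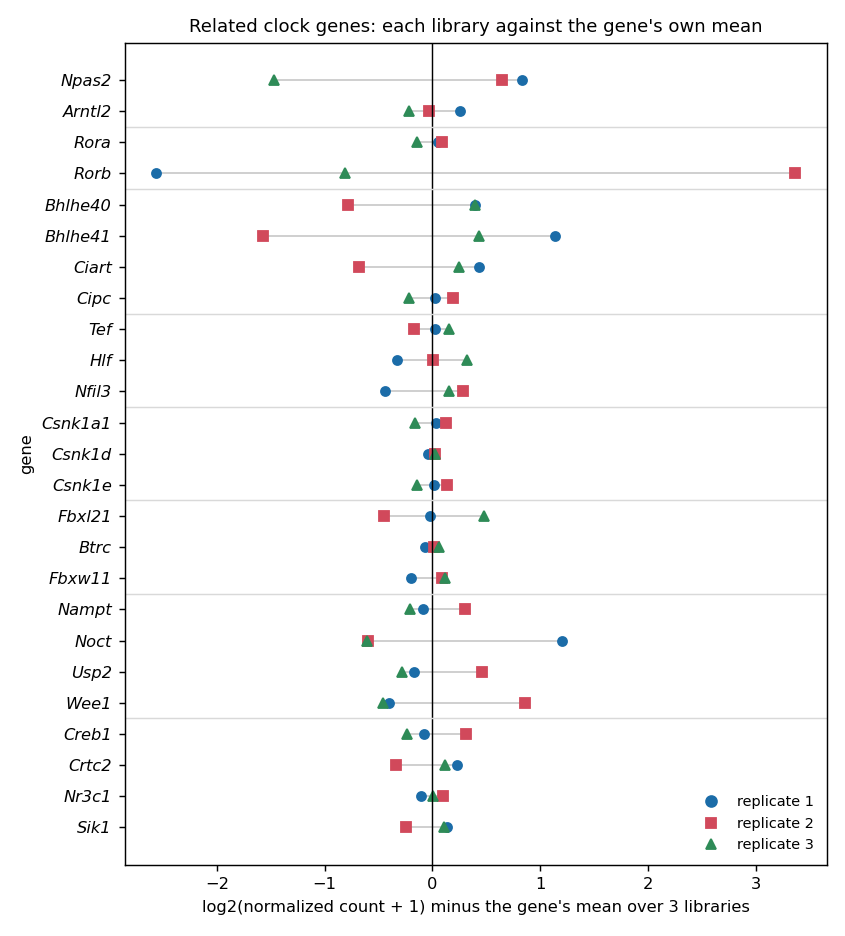
Difference of log2(normalized count + 1) in each library from the gene's own mean over the 3 libraries, for 25 of the 27 further clock genes grouped by role. Bhlhe40, Bhlhe41 and Ciart had replicate 2 (squares) as their lowest library, and Noct had replicate 1 (circles) as its highest. The wide line of Rorb rests on 0, 85 and 2 reads in replicates 1, 2 and 3.

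Patterns over the 3 libraries were compared within the 10 clock genes and this list by the root mean square difference of centred log2 levels, a description over only 3 points. The levels were not scaled by their spread, so genes with narrow ranges lie close to each other and genes with wide ranges lie further off. Dbp was most like Ciart (0.088), and Per2 was most like Tef (0.025). Cry1 was most like Cry2 (0.12), while Cry2 was most like Hlf (0.10). Clock was most like Creb1 (0.023), Nr1d1 most like Sik1 (0.043) and Per1 most like Csnk1d (0.017). Arntl and Per3, which both had wide ranges, were nearest to Nfil3 (0.25) and Fbxl21 (0.16). Fbxl21 rested on 17 to 20 reads and Hlf on 30 to 47. Like Per1 and Per2, both passed the test between libraries in no pair, so their patterns may lie within counting error.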

How the data were processed

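The 3 libraries were read from 1 deposited table. The authors removed adapters with ea-utils, then aligned 50-base single-end reads to mm10 with TopHat2 2.0.13, kept unique alignments with a score of 10 or more, counted reads per gene with HTSeq 0.5.3p3 and normalized with DESeq (versions as in the submitters' processing notes). The annotation, strand setting and libraries behind the size factors are not given in the sources used here. The deposited signal is normalized counts, and 100% of values were whole multiples of 1 read (within 0.01 reads), so reads were recovered by division. A further 3 columns of per-sample values carried no label of these samples and were not used. Of 43472 rows, 20322 had reads, and 27 names had become dates (0.231% of reads).

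Levels are means ± SD. Log2 values used a pseudocount of 1. Libraries were compared pairwise by exact binomial tests on recovered reads, restricted to genes whose reads in both libraries together numbered 10 or more, and adjusted by Benjamini-Hochberg over all genes tested. Exonic lengths, positions and shared windows came from GENCODE M21 (GRCm38, the same build), and promoters from RefSeq. Noct was matched under its older symbol, Ccrn4l. Tools were Python 3.11.15, numpy 2.4.6, scipy 1.17.1, pandas 2.3.3, matplotlib 3.10.9 and, for TMM factors, edgeR 4.0.16 in R 4.3.3. The pairwise test was checked on simulated data that held counting error and planted changes alone. Spread between replicates beyond counting error was not simulated, so the check does not cover it. The genes named were the 10 clock genes, genes overlapping them, the gene nearest in pattern to each, and of the further list those highest per kb in their group, not detected or over 2-fold in range. Cipc, Csnk1a1, Csnk1e, Usp2, Nampt and Nr3c1 were named after their values were seen. Results for 2 genes of the further list are not reported here. The rule for the members uses gene names alone, but members and lists were chosen with earlier results of these data known. Alternatives were other scalings, pseudocounts, minimums, fold limits and lengths, and each replicate left out.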

Additional observations from a re-analysis of the deposited data

How the results depend on the processing

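No paired analysis was possible because all 3 libraries share 1 condition. The clock genes detected stayed at 10 with a minimum on the mean, and 8 of them passed 100 normalized counts in all libraries. Calls between libraries fell from 6, 5 and 7 of 10 to 2, 0 and 1 once more than 2-fold was also required. The number of clock genes with a more than 2-fold range, 3, was 5 at 1.5-fold and 0 at 3-fold, beside 48.5% and 7.70% of detected genes. With replicate 1, 2 or 3 left out it was 1, 0 and 2, beside 12.8%, 6.39% and 15.4% of detected genes. The counts of clock genes lie near these shares and say nothing particular about them. In the list of 27, which holds 3 genes that were not detected, the number over 2-fold was 7. It was 11 at 1.5-fold, 4 at 3-fold and 3 to 6 with 1 library left out, lowest without replicate 2, and the same shares of detected genes apply. The median SD of that list, 0.27, ran from 0.12 without replicate 2 to 0.27, and that of all genes rose from 0.30 to 0.46 over genes with any reads. At 1.5-fold, replicate 1 stood apart from both others in 1 clock gene and replicate 2 in 3, against 0 at 2-fold. At 2-fold the shares of detected genes were 2.63% and 7.66%, and those at 1.5-fold are not given here. Neighbouring pairs apart in the order per kb, 2 of 9, were 4 without division by length and 3 to 5 with 1 library left out, namely 4 without replicate 1, 5 without replicate 2 and 3 without replicate 3. Equal totals and TMM scaling left the order per kb as it was. With equal totals, 6 instead of 7 clock genes were called between replicates 2 and 3. In the list of 27, calls then rose from 11 to 14 between replicates 1 and 3 and from 16 to 19 between replicates 2 and 3. TMM scaling left these counts unchanged. The causes were not tested. Depth limits Dbp most, with 37 to 74 reads, and with 3 libraries of 1 condition no culture effect can be tested.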
